A study of Mus musculus with 4 samples.

Results

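The 43 genes described here encode transcription factors of interneurons and other neurons that have left the cell cycle, among them homeodomain, zinc finger and bHLH proteins of the hindbrain and spinal cord. They were taken by gene symbol from the deposited expression table, where all 43 were found, 1 row each, among 24771 listed features. Their RNA was compared between PSC-derived SG placodes on day 10 (2 samples) and submandibular glands (SMGs) of E12.5 mouse embryos (2 samples). The placodes came from a single line of mouse embryonic stem cells, seeded at 3000 cells per well with 2% Matrigel in the medium. They received BMP4 at 2 ng/ml on day 3, bFGF at 25 ng/ml with retinoic acid (RA) at 1 μM on day 4. From day 6 onward the medium held FGF10 at 200 ng/ml. No treatment, strain or dissection method is given for the glands. Whether the samples of a group came from separate cultures or litters is not stated, so p-values measure the spread between these samples only, which may be technical. No batch is labelled either, so a batch that followed the groups cannot be told apart from them.

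In the developing hindbrain and spinal cord, neurons are born from stacked progenitor domains and sort into named classes, dI1 to dI6 dorsally and V0 to V3 ventrally, beside the motor neurons. Each class is recognised by a combination of such factors, which fix transmitter, axon route and wiring. Other factors, such as Insm1, the Scratch proteins and the Myt family, act in most newborn neurons of every class. Several of these genes also have roles outside the nervous system, for example Gata2 in blood and endothelium and Tlx1 in the spleen.

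Levels are given in FPKM, the fragments of a gene scaled to its transcript length and to all mapped fragments, so levels can be compared between genes. The sum of FPKM was 361963 to 384773 per sample, and read counts are not known, so neither depth nor a detection floor can be given. A gene is called detected in a group where neither sample fell below 1 FPKM. Differences between groups are differences of mean log2(FPKM + 1), placodes minus SMGs, and understate the change of low genes. They were tested with limma over the 13193 features whose mean over the 4 samples was at least 1, with two-sided p-values adjusted by the Benjamini-Hochberg method, and a gene was called at an adjusted p below 0.05. An exact permutation test of 2 against 2 samples cannot fall below 0.333. The samples are bulk RNA, in which a larger number of neurons and more RNA per neuron cannot be told apart.

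The cell content of the samples was checked with marker lists. Salivary epithelium markers were all detected in the SMGs (12 of 12), while 6 of 12 were detected in the placodes, where Krt5, Krt14 and Krt15 were listed at 0 and Trp63 was at most 0.0287 FPKM. Sox9 and Krt19 of this list went the other way, at 42.1 and 42.99 FPKM against 9.31 and 7.66 for Sox9 and at 14.7 and 15.8 against 9.78 and 6.53 for Krt19. General neuronal markers were detected in the placodes for 9 of 9 genes, with a summed level of 1175 and 1205 FPKM, and in the SMGs for 8 of 9, with sums of 112 and 100.4. The plot of marker lists shows the remaining cell types, of which endothelial, erythroid, leukocyte and mesenchyme genes had higher sums in the SMGs. The Schwann cell and crest precursor list was higher in the placodes, at 352 and 374 FPKM against 54.2 and 47.5, of which Fabp7, also a radial glia gene, made up 343 and 367.

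**Figure D1:**
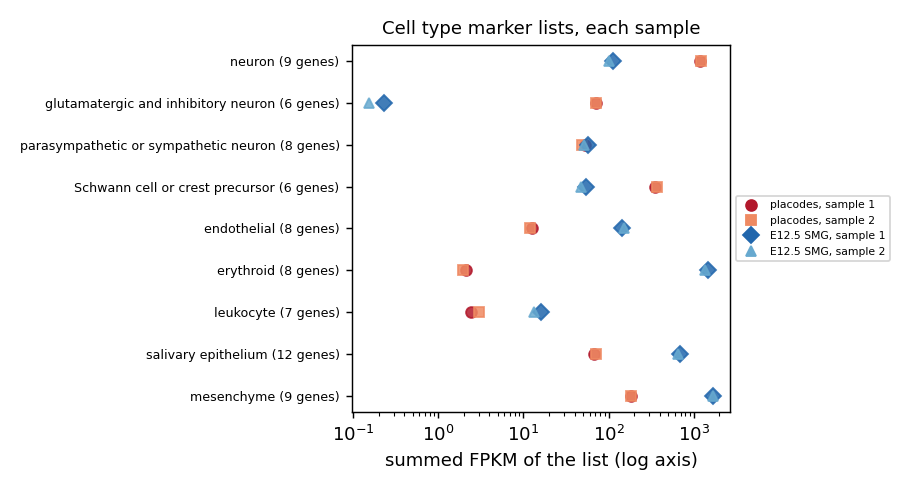
Summed FPKM of each cell type marker list (horizontal, log axis) in the 4 samples, with 1 symbol per sample and the number of genes in brackets. Neuron sums lie at 1175 and 1205 in the placodes and at 112 and 100.4 in the SMGs, and the parasympathetic or sympathetic neuron sums lie between 49.4 and 57.0 in all 4 samples.

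Across the members, 33 of 43 (76.7%) were detected in the placodes and 14 (32.6%) in the SMGs, against 50.1% and 50.5% of all listed features. Detection in the placodes alone was found for 21 members (48.8%), against 4.72% of all listed features, and detection in the SMGs alone for 2, Tlx1 and Gata3 (4.65%, against 5.07%). In the placodes 19 members reached 10 FPKM in both samples, compared with 2 in the SMGs, Ebf3 and Bcl11a. The share of all listed features at this level was not computed, so nothing is read from these 2 counts. A mean of at least 1 FPKM over the 4 samples was reached by 35 members, and 8 (Lhx2, Lhx9, Barhl1, Barhl2, Sim1, Sim2, Vsx1 and Lmx1a) were too low to test.

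Of the 35 tested members, 30 were called higher in the placodes, where the background was 35.7% of all tested features, and 3 were called lower, where it was 40.4%. At least 2-fold differences were called upward for 26 members (background 14.1%) and downward for 1 (background 15.2%). The median difference of the tested members was 2.96 on the log2 scale, against -0.05 over all tested features. Of these 35 genes, 20 had a mean below 1 FPKM in the SMGs and entered the test only through the placodes, so a difference was to be found in them by construction. Gata3 had a mean below 1 FPKM in the placodes and entered through the SMGs, and 14 members had means of at least 1 in both groups. Placode and SMG values were fully apart for 34 of the 35, with a background of 88.4%. Replicates lay close together, with a median absolute log2 difference among tested members of 0.0667 within the placodes and 0.0460 within the SMGs.

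**Figure D2:**
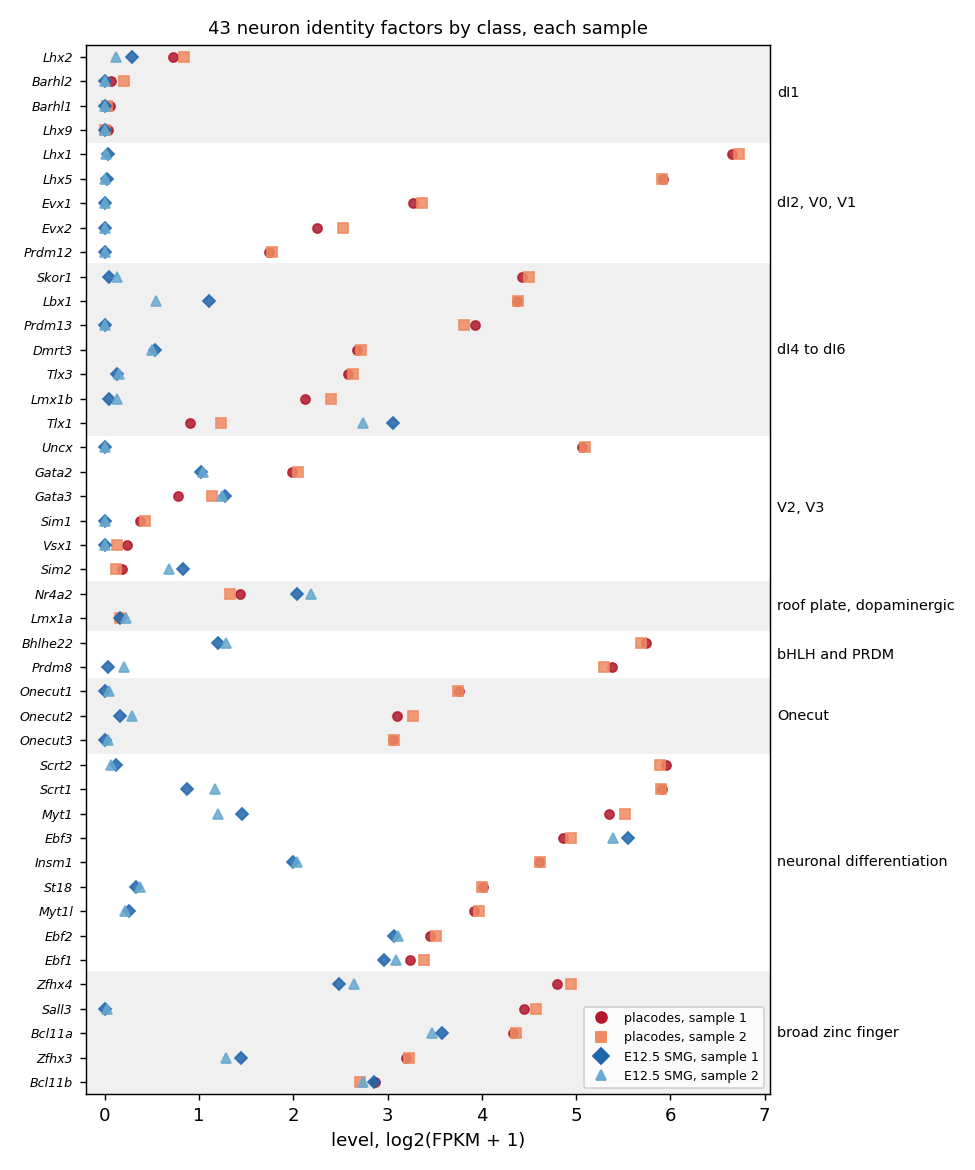
Level of each of the 43 genes as log2(FPKM + 1) (horizontal) in the 2 placode samples (red and orange) and the 2 SMG samples (dark and light blue), grouped by neuron class. Lhx1 lies highest in the placodes at 99.95 and 105 FPKM, the 4 dI1 genes lie below 1 FPKM in every sample, and Tlx1, Nr4a2 and Ebf3 lie higher in the SMGs.

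**Figure D3:**
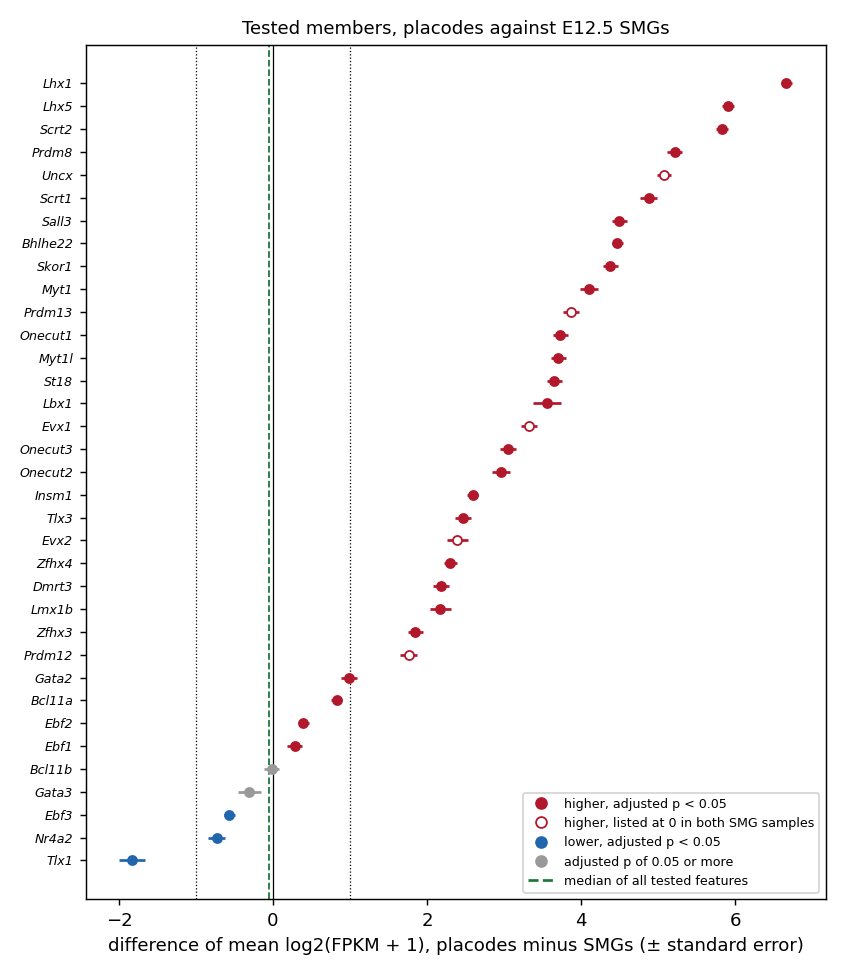
Difference of mean log2(FPKM + 1), placodes minus SMGs, with its standard error, for the 35 tested genes, where dotted lines mark a 2-fold difference and the dashed line the median of all tested features. The points run from 6.66 for Lhx1 to -1.83 for Tlx1, open points are listed at 0 in both SMG samples, positions of genes near 0 in the SMGs depend on the pseudocount, and the sign of Bcl11b (grey, near 0) changes with the scaling of the samples.

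The 5 dI2, V0 and V1 factors were detected in the placodes and not in the SMGs. All 5 were called higher (background 35.7%), but each entered the test through the placodes only, which fixed the direction. The 250 bases before the RefSeq start site are shown for Lhx1, the most abundant member in the placodes, and for Evx1, Evx2, Prdm12 and Prdm13, which were detected in the placodes and listed at 0 in both glands. The sequences are from RefSeq on GRCm38.p6, written 5′ to 3′ on the strand of the gene, and capitals mark CpG dinucleotides.
Lhx1 (chr11:84525535-84525784, minus strand): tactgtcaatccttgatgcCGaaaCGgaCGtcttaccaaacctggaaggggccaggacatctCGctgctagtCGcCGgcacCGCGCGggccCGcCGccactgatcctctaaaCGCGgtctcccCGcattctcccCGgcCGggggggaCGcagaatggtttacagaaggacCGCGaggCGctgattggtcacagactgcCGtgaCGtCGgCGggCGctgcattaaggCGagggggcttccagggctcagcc
Evx1 (chr6:52313248-52313497, plus strand): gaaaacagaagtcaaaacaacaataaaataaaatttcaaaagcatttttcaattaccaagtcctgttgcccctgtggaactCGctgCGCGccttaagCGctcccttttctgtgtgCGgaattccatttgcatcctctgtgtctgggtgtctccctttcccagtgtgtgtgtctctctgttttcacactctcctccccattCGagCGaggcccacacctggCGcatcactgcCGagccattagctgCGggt
Evx2 (chr2:74659558-74659807, minus strand): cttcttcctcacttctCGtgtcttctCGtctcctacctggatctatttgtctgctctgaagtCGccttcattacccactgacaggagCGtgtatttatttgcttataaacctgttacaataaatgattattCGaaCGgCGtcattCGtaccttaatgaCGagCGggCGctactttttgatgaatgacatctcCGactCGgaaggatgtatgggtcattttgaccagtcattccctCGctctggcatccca
Prdm12 (chr2:31639787-31640036, plus strand): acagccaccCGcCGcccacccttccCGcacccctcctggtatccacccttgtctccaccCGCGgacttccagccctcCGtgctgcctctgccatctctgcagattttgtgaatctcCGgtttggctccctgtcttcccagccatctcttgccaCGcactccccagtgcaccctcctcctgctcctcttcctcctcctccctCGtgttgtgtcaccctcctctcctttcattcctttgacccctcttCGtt
Prdm13 (chr4:21685964-21686213, minus strand): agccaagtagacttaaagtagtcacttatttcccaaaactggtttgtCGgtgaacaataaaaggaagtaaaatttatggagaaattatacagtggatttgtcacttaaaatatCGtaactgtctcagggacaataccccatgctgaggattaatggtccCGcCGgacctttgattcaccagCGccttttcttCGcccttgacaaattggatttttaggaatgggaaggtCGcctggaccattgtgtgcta

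These windows held 26 CpGs for Lhx1, 10 for Evx1, 14 for Evx2, 10 for Prdm12 and 7 for Prdm13. RefSeq promoter entries were found for 30 of the 43 members, with 42 windows in all, since a gene can have several start sites. The median GC content was 59.2% in the windows of members and 52.4% in all 32851 windows. On both strands, 7 short motifs known for factors of these families were searched. TAATTA, a core bound by many homeodomains, was in 4.76% of member windows and 4.84% of all windows. For the Onecut-type cores ATTGAT and ATCGAT the shares were 9.52% against 6.72% and 2.38% against 0.728%. The Myt-type core AAAGTTT was in 2.38% against 4.20%, and the Gata-type core AGATAA in 2.38% against 9.99%. The E-boxes CAGCTG and CAGATG were in 11.9% each, against 13.0% and 14.4%. With 42 windows, of which several belong to 1 gene, a share of 2.38% is 1 window. Of the 5 windows printed above, none held any of the 7 motifs.

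Lhx1 (ENSMUSG00000018698) lies on chromosome 11 of GRCm38 from 84518284 to 84525535 and encodes a LIM homeodomain protein of inhibitory and commissural classes. It measured 99.95 and 105 FPKM in the placodes, against 0.0262 and 0.0136 in the glands. Its paralogue Lhx5 (ENSMUSG00000029595, chromosome 5, 120431699 to 120441223) measured 59.8 and 59.1 FPKM, against 0.0168 and 0. Both were high in each placode sample and near 0 in each SMG sample, with differences of 6.66 (standard error 0.07, adjusted p = 7.80e-08) for Lhx1 and 5.90 (standard error 0.08, adjusted p = 1.25e-07) for Lhx5 on the log2 scale. With glands this close to 0, the sizes depend on the pseudocount, and at 0.1 they were 9.74 and 9.11. Within the placodes the level of Lhx1 was 1.67 and 1.77 times that of Lhx5.

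Evx1 and Evx2, homeobox genes of the V0 class, stand at the ends of the Hoxa and Hoxd clusters. Evx1 measured 8.65 and 9.33 FPKM in the placodes (limma adjusted p = 1.25e-06), and Evx2 measured 3.76 and 4.78 FPKM (adjusted p = 1.28e-05). Both genes were listed at 0 in each SMG sample, so no fold change is given. Evx1 (chromosome 6, 52313498 to 52318378) is 52618 bp from Hoxa13 in the GENCODE annotation, and Evx2 (chromosome 2, 74652991 to 74659557) is 8753 bp from Hoxd13. Hoxa13 was at 0.0468 and 0 FPKM in the placodes and Hoxd13 at 0.0510 and 0.0851, so both Evx genes were higher than the neighbouring Hox gene in each placode sample. Prdm12, a PRDM factor of V1 progenitors and of pain-sensing neurons, measured 2.36 and 2.42 FPKM and was listed at 0 in both glands (adjusted p = 2.20e-05).

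Genes that define or accompany the same classes were read beside them, from a list of 28 outside the members. Dbx1, the progenitor factor of V0 neurons, measured 103 and 97.9 FPKM in the placodes against 0.126 and 0.312, a log2 difference of 6.38 (adjusted p = 1.59e-07). Pax2 was at 24.4 and 24.8 FPKM against 0 and 0.0360, and Pax8 at 42.1 and 41.4 with 0 in both glands. Both are paired-box genes of inhibitory interneurons and, like Dbx1, were on the same side as Lhx1 and Lhx5. En1, the defining homeobox gene of V1 neurons, was low by comparison, at 1.74 and 1.48 FPKM in the placodes and at most 0.0399 in the SMGs, and its mean over the samples was too low to test. Of the 28 genes, 17 were tested, 12 were called higher (9 at least 2-fold) and 2 lower (1 at least 2-fold). Of the 17, 10 had an SMG mean below 1 FPKM and 2, Isl2 and Tal1, a placode mean below 1, so that their direction was fixed by the minimum level. These counts stand beside background shares of 35.7% and 40.4%, and of 14.1% and 15.2% for 2-fold differences, and nothing is read from them.

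The bHLH genes Nhlh1 and Nhlh2, which mark neurons just after their last division, were also high in the placodes. Nhlh2 measured 85.01 and 89.4 FPKM and was listed at 0 in both glands, and Nhlh1 measured 32.3 and 31.6 FPKM against 0.0647 and 0.0212 (log2 difference 4.98). Sox21, a SoxB gene of neural progenitors, was at 46.3 and 47.4 FPKM against 1.94 and 2.10 (log2 difference 3.98). Mafa, a bZIP factor, was at 12.9 and 10.8 FPKM against 0.321 and 0.571 (log2 difference 3.15). These genes had no overlap between the groups, as was so for 88.4% of all tested features. Pou4f1, a POU homeobox gene of sensory and dorsal neurons, was at 7.41 and 6.97 FPKM against 0.0512 and 0.0230 (log2 difference 2.98). Hmx2 was higher by 0.76, at 2.05 and 2.40 FPKM against 1.00 and 0.797.

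**Figure D4:**
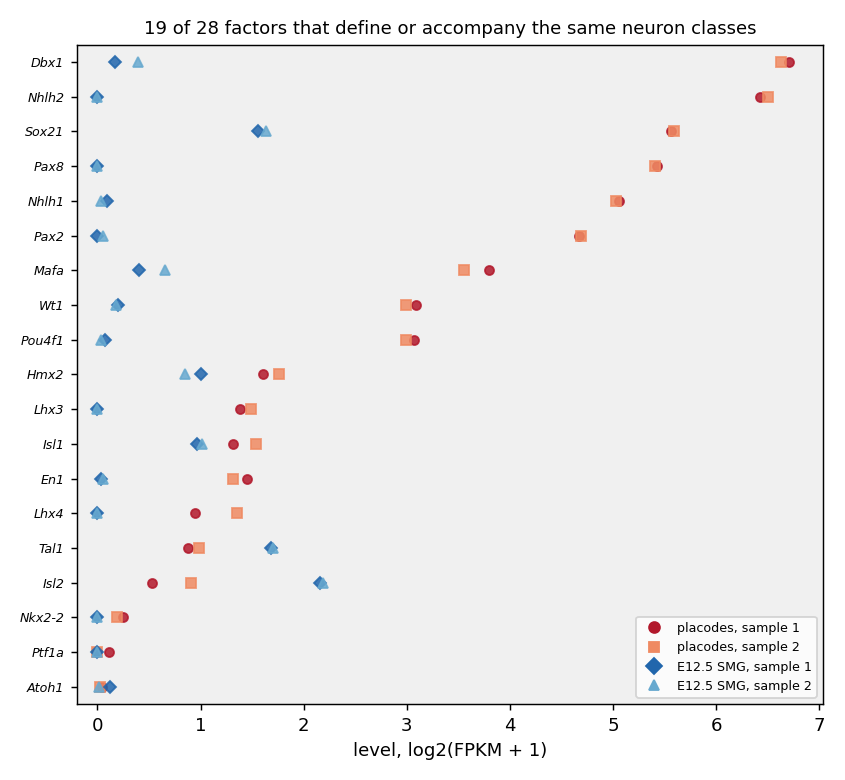
Levels as log2(FPKM + 1) of 19 of the 28 factors that define or accompany the same neuron classes, those named in the text, ordered by their placode mean, with 1 symbol per sample. Dbx1 is at the top with 103 and 97.9 FPKM in the placodes, Atoh1 and Ptf1a are at the bottom, and Isl2 and Tal1 lie higher in the SMGs.

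Of the 7 dI4 to dI6 and sensory relay factors, 6 were called higher in the placodes (background 35.7%) and Tlx1 was called lower (background 40.4%). The 6 had SMG means below 1 FPKM and entered the test through the placodes only. Lbx1, a homeobox gene that separates dI4 to dI6 from the classes above them, measured 19.7 and 19.9 FPKM in the placodes against 1.15 and 0.459 in the glands (log2 difference 3.55, standard error 0.18, adjusted p = 8.86e-06). Skor1, a co-repressor of dorsal interneurons, was at 20.6 and 21.7 FPKM against 0.0344 and 0.0942 (log2 difference 4.38, standard error 0.10, adjusted p = 4.01e-07). Lbx1 and Skor1 thus stood at nearly equal levels in the placodes. All their placode values were above all SMG values, and groups were apart in either direction for 88.4% of tested features. Prdm13, a factor of inhibitory dorsal neurons that is known to act after Ptf1a, measured 14.2 and 13.0 FPKM and was listed at 0 in both glands (adjusted p = 6.64e-07). Ptf1a itself measured 0.0818 and 0 FPKM in the placodes, far below Prdm13 in each sample.

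Dmrt3, which marks a subset of dI6 neurons, measured 5.40 and 5.60 FPKM in the placodes against 0.448 and 0.415 (log2 difference 2.18, standard error 0.10, adjusted p = 6.26e-06). Wt1, known in another subset of dI6 neurons, was at 7.51 and 6.97 FPKM against 0.151 and 0.129 (log2 difference 2.85, adjusted p = 2.34e-06). By mean FPKM, the placodes were at 12.8 times the SMG level for Dmrt3 and at 51.7 times for Wt1, with SMG means below 1. Lmx1b, a LIM homeobox gene of dI5 and serotonergic neurons, measured 3.37 and 4.27 FPKM against 0.0325 and 0.0977 (log2 difference 2.17, standard error 0.14, adjusted p = 2.01e-05).

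Tlx1 and Tlx3 went in opposite directions. Tlx3, a selector of the excitatory transmitter type in dorsal neurons, measured 5.004 and 5.20 FPKM in the placodes against 0.0992 and 0.111 (log2 difference 2.47, standard error 0.11, adjusted p = 4.25e-06). Tlx1 measured 0.875 and 1.35 FPKM in the placodes against 7.35 and 5.68 (log2 difference -1.83, standard error 0.16, adjusted p = 9.90e-05). The groups did not overlap for either gene, as was so for 88.4% of all tested features. Within a sample, Tlx3 was at 5.72 and 3.85 times the level of Tlx1 in the placodes, whereas Tlx1 was at 74.1 and 51.3 times the level of Tlx3 in the SMGs. Mesenchyme markers, detected for 9 of 9 genes in the SMGs and 8 of 9 in the placodes, had summed levels of 1663 to 1694 FPKM in the SMGs and 183 in both placode samples, and salivary epithelium markers had sums of 650 to 689 and 68.2 to 70.7, the latter mostly of Sox9 and Krt19. Their part in the level of Tlx1 was not tested.

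The dI1 factors were not detected in either group. Lhx2 had the highest level of the class, at 0.650 and 0.798 FPKM in the placodes and 0.219 and 0.0876 in the SMGs. Barhl2 was at 0.0470 and 0.153 FPKM in the placodes, Barhl1 at 0.0380 and 0.0202, and Lhx9 at 0.0246 and 0, and all 3 were listed at 0 in both glands. These genes act in the commissural and cerebellar granule lineages that start from Atoh1, and Atoh1 was also low throughout, between 0.0123 and 0.0850 FPKM in the 4 samples. Lhx2 and the Barhl genes did not overlap between the groups, but at these levels the depth is unknown and no test was made. Among tested features, groups were apart for 88.4%.

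The V2 and V3 factors were mixed, with 3 of 6 genes tested. Uncx, a paired-type homeobox gene of somites and of several neuron types, measured 32.3 and 33.2 FPKM in the placodes and was listed at 0 in both glands (adjusted p = 2.05e-07). Uncx entered the test through the placodes only, which fixed its direction. Its RefSeq promoter window held TAATTA at 2 positions and ATCGAT at 1, and is not printed because it lies within the annotated gene (chromosome 5, 139543494 to 139548179). Sim1, the defining bHLH-PAS factor of V3 neurons, was at 0.297 and 0.342 FPKM in the placodes, and Nkx2-2, the V3 progenitor factor, at 0.185 and 0.139. Uncx was thus far above both V3 genes in each placode sample. Vsx1 was at 0.175 and 0.0949 FPKM and was listed at 0 in the glands. Sim2 was the untested member with higher levels in the glands, at 0.777 and 0.600 FPKM against 0.139 and 0.0878 in the placodes.

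Gata2 and Gata3 are zinc finger factors of V2b neurons that also act in blood, endothelium and other tissues. Gata2 measured 2.96 and 3.15 FPKM in the placodes against 1.03 and 1.06 (log2 difference 0.99, standard error 0.10, adjusted p = 2.19e-04). Gata3 measured 0.713 and 1.20 FPKM against 1.43 and 1.37 (log2 difference -0.31, standard error 0.15, adjusted p = 0.106), and without placode sample 2 it was called lower (log2 difference -0.49, adjusted p = 0.0200). Gata2 was higher in both placode samples and Gata3 lower in both, though the placode values of Gata3 were far apart. Tal1, which works with them in V2b neurons as well as in blood and endothelium, was at 0.836 and 0.980 FPKM in the placodes and 2.20 and 2.26 in the SMGs (log2 difference -0.76, adjusted p = 9.53e-04). Endothelial markers were detected for 8 of 8 genes in the SMGs, with sums of 145 and 152 FPKM, and for 2 of 8 in the placodes, with sums of 12.6 and 11.9. Erythroid sums were 1366 to 1452 FPKM in the SMGs and 1.94 to 2.11 in the placodes, where Gata1, Slc4a1, Hba-x and Hbb-y were listed at 0. The part of blood and vessels in the Gata levels of the glands was not tested.

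Bhlhe22 and Prdm8 form a repressor complex in which the bHLH protein recruits the PRDM protein. Bhlhe22 measured 52.4 and 50.6 FPKM in the placodes against 1.30 and 1.44 (log2 difference 4.47, standard error 0.07, adjusted p = 1.94e-07). Prdm8 measured 40.7 and 38.2 FPKM against 0.0276 and 0.154 (log2 difference 5.21, standard error 0.10, adjusted p = 2.57e-07). With an SMG mean below 1 FPKM, Prdm8 entered the test through the placodes only, which fixed its direction. Both partners were abundant in the placodes, with Bhlhe22 at 1.29 and 1.32 times the level of Prdm8. In the glands Bhlhe22 alone was detected. Of the exonic bases of Prdm8, 29.1% are shared with the antisense gene A730035I17Rik, and the strandedness of the libraries is not given, so reads in the shared stretch cannot be told apart.

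All 3 Onecut genes, cut-homeodomain factors of spinal neurons that are also active in liver and pancreas, were detected in the placodes only. The 3 were called higher (background 35.7%), with a direction fixed by the minimum level, since each had an SMG mean below 1 FPKM. Onecut1 measured 12.52 and 12.4 FPKM against 0 and 0.0324 (log2 difference 3.73, adjusted p = 6.69e-07). Onecut2 measured 7.60 and 8.65 FPKM against 0.124 and 0.225 (log2 difference 2.96, adjusted p = 3.06e-06), and Onecut3 measured 7.33 and 7.40 FPKM against 0 and 0.0275 (log2 difference 3.04, adjusted p = 1.66e-06). Onecut1 was the most abundant of the family in both placode samples, and the levels of Onecut2 and Onecut3 were close. Onecut1 shares 52.8% of its exonic bases with the noncoding gene Gm20649 on the same strand.

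Among the 9 neuronal differentiation factors, 8 were called higher (background 35.7%) and Ebf3 was called lower (background 40.4%), and 3 of the 8 (Scrt2, Myt1l and St18) had SMG means below 1 FPKM. Scrt1 and Scrt2 encode Scratch proteins, Snail-related repressors of newborn neurons. In the placodes Scrt1 measured 59.0 and 58.5 FPKM and Scrt2 61.0 and 58.3, so their ranges overlapped. In the glands Scrt1 was at 0.832 and 1.26 FPKM and Scrt2 at 0.0892 and 0.0453, so that the same pair differed there in every sample. The log2 differences were 4.88 (standard error 0.11, adjusted p = 4.37e-07) for Scrt1 and 5.83 (standard error 0.08, adjusted p = 1.36e-07) for Scrt2.

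Insm1, a zinc finger factor of newborn neurons and endocrine cells, measured 23.4 and 23.5 FPKM in the placodes against 3.00 and 3.11 (log2 difference 2.59, standard error 0.07, adjusted p = 7.91e-07). The Myt family of zinc finger proteins, which hold down non-neuronal genes, was higher in the placodes for all 3 genes. Myt1 measured 39.7 and 44.9 FPKM against 1.75 and 1.31 (log2 difference 4.10, adjusted p = 7.64e-07). Myt1l measured 14.1 and 14.7 FPKM against 0.195 and 0.163 (log2 difference 3.70, adjusted p = 6.40e-07), and St18 measured 15.1 and 15.0 FPKM against 0.257 and 0.296 (log2 difference 3.65, adjusted p = 6.12e-07). Myt1 was the most abundant of the 3 in each of the 4 samples. In the SMGs, Insm1 and Myt1 were detected, as were 8 of 9 general neuronal markers and 6 of 8 markers of parasympathetic or sympathetic neurons, whose summed level was 57.0 and 52.0 FPKM. The placodes also had 6 of 8 of the latter detected, with sums of 52.8 and 49.4 FPKM. The part of gland neurons in the SMG levels of Insm1 and Myt1 was not tested.

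The Ebf genes, helix-loop-helix factors of neurons, B cells and mesenchyme, differed little between the groups. Ebf3 was the most abundant member in the SMGs, at 45.7 and 41.1 FPKM, and measured 28.1 and 29.9 FPKM in the placodes (log2 difference -0.57, standard error 0.07, adjusted p = 4.15e-04). Ebf2 measured 9.95 and 10.4 FPKM in the placodes against 7.39 and 7.63 (log2 difference 0.39, standard error 0.07, adjusted p = 3.22e-03). Ebf1 measured 8.42 and 9.43 FPKM against 6.80 and 7.53 (log2 difference 0.28, standard error 0.09, adjusted p = 0.0319). The call of Ebf1 rested on all 4 samples: with any 1 of them left out, the adjusted p was between 0.0644 and 0.185. All 3 genes were abundant in both groups, and Ebf3 was at 2.82 and 2.88 times the level of Ebf2 in the placodes and at 6.19 and 5.39 times in the SMGs.

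The broad zinc finger and zinc finger homeobox factors were all detected in the placodes, and 4 of 5 also in the SMGs. Sall3, a Spalt zinc finger factor, was the exception, at 20.8 and 22.7 FPKM in the placodes against 0 and 0.0206 (log2 difference 4.49, standard error 0.10, adjusted p = 3.87e-07). Its direction was fixed by the minimum level, since it had an SMG mean below 1 FPKM. Zfhx4 measured 26.8 and 29.8 FPKM against 4.62 and 5.27 (log2 difference 2.30, standard error 0.09, adjusted p = 2.76e-06), and Zfhx3 measured 8.18 and 8.40 FPKM against 1.72 and 1.44 (log2 difference 1.85, standard error 0.10, adjusted p = 1.19e-05). These large zinc finger homeobox genes stood in a like proportion, with Zfhx4 at 3.28 and 3.55 times the level of Zfhx3 in the placodes and 2.68 and 3.66 times in the glands.

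Bcl11a and Bcl11b encode related zinc finger repressors of cortical, spinal, blood and epithelial cells. Bcl11a measured 19.1 and 19.6 FPKM in the placodes against 10.9 and 10.1 (log2 difference 0.83, standard error 0.07, adjusted p = 6.83e-05). Bcl11b was at 6.29 and 5.53 FPKM against 6.26 and 5.70, with overlapping groups (log2 difference -0.015, standard error 0.10, adjusted p = 0.894). The sign of the Bcl11b difference turned under 3 other scalings of the samples. Of the tested members, Bcl11b was the only one whose groups overlapped, where groups were apart for 88.4% of all tested features.

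Of the roof plate and dopaminergic factors, neither was higher in the placodes. Nr4a2, a nuclear receptor of dopaminergic neurons that also responds to acute signals in many cells, measured 1.70 and 1.51 FPKM in the placodes against 3.11 and 3.55 (log2 difference -0.73, standard error 0.11, adjusted p = 1.26e-03). Lmx1a, which marks the roof plate, was between 0.121 and 0.168 FPKM in the 4 samples, with overlapping groups. Its paralogue Lmx1b, described above, was at 27.9 and 35.0 times the level of Lmx1a in the placodes.

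The order of the members in the placodes was led by Lhx1, followed by Scrt2, Lhx5 and Scrt1 with means between 58.8 and 59.6 FPKM. The values of Scrt2 overlapped those of Lhx5 and of Scrt1, while Lhx5 lay slightly above Scrt1 in both samples. Bhlhe22 (51.5 ± 1.29, SD, n = 2), Myt1 (42.3 ± 3.67, SD, n = 2) and Prdm8 (39.4 ± 1.74, SD, n = 2) came next, with overlapping values between Myt1 and Prdm8. In the SMGs the order was Ebf3 (43.4 ± 3.27, SD, n = 2), Bcl11a (10.5 ± 0.602, SD, n = 2) and Ebf2 (7.51 ± 0.175, SD, n = 2), followed by Ebf1 and Tlx1. The values of Ebf2 overlapped those of Ebf1, and those of Ebf1 overlapped those of Tlx1. Transmitter genes were read from a list of 6, most of them inhibitory. In the placodes the inhibitory vesicular transporter Slc32a1 was at 22.4 and 22.0 FPKM and Gad1 at 18.3 and 19.2. Gad2 was at 12.8 and 14.0 FPKM and the glycine transporter Slc6a5 at 14.0 and 12.0. The excitatory Slc17a6 was at 3.61 and 3.78 FPKM and Slc17a7 at 0.255 and 0.201. None of the 6 was detected in the SMGs. Levels of different genes in bulk RNA do not give a balance of transmitter types.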

How the data were processed

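Total RNA of 2 samples of PSC-derived SG placodes and 2 of E12.5 SMGs was sequenced as paired-end reads. The authors mapped the reads with HISAT2 (version not given in the sources used here) and deposited FPKM values per gene. The submitters' processing notes name GRCm38 and GRCh38, and the FPKM program, annotation and strandedness are not given in the sources used here. Columns were assigned to samples by name. All 43 members matched GENCODE M21 (GRCm38) by identifier, and 10 share exonic bases with another annotated gene.

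FPKM was transformed with a pseudocount of 1 and tested in limma 3.58.1 (R 4.3.3, eBayes with trend, group as the only term) over 13193 features with a mean of at least 1, after the procedure had been tested on simulated data. Figures were made with Python 3.11.15. Alternatives changed 1 choice at a time: pseudocount, scaling, minimum level, replicate block, eBayes without trend, detection level and each sample left out.

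The members, classes and marker lists were chosen with earlier results of these data known. By rule, members with a mean of at least 1 are named with their values and the others with their range, for which the sample values are printed in all but Lmx1a. Deviations of same-numbered samples correlated at -0.0348 across features, so the numbers were not taken as pairs. Another 2735 features, assembled loci without a gene name, entered the fit where they passed the minimum and are not reported singly. Some genes of the comparison lists are counted but not reported by name here.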

Additional observations from a re-analysis of the deposited data

How the results depend on the processing

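The counts of members called were nearly the same under most alternatives. With the pseudocount at 0.1 or 0.01, 2 members were at least 2-fold lower, Tlx1 and Nr4a2 (background 18% and 18.3%). These pseudocounts moved the log2 difference by over 1.5 times for 16 and 21 of the 35 tested members. With a minimum mean of 5 FPKM, fewer members were tested, 22. By limma, 20 were higher (background 37.1%) and 1 lower (background 39.9%). At least 2-fold differences were called upward for 17 (background 13%) and downward for 0 (background 12.6%). Members detected in the SMGs numbered 22 at a level of 0.1 FPKM and 6 at 5 FPKM. Leaving out 1 sample of a group gave 33 to 35 members detected in the placodes and 15 in the SMGs.

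The difference of Bcl11b turned positive, at 0.041 under TPM, 0.036 under median-ratio and 0.040 under quantile scaling. It ran from -0.095 to 0.064 with 1 sample left out, and was called under none of these. Ebf1 lost its call without a minimum level (adjusted p = 0.0544). The samples share only replicate numbers. With the replicate number as a block, 30 members were higher (background 35.6%) and 3 lower (background 40.5%). At least 2-fold differences were called upward for 26 (background 14.2%) and downward for 1 (background 15.3%), so the block changed no call of a tested member. FPKM gives no depth, which limits what can be said of values below 1.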

Other observations

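LIM homeobox genes outside the 43 members were read for comparison, from a list of 6. Lhx6 was at 0.283 and 0.222 FPKM in the placodes against 3.42 and 2.56 in the SMGs (log2 difference -1.66, limma adjusted p = 8.02e-05), and Lhx8 at 0.160 and 0.102 against 4.06 and 2.36 (log2 difference -1.87, adjusted p = 2.50e-04). Both are known in oral mesenchyme and in forebrain neurons. Isl2 was also lower, at 0.447 and 0.870 FPKM against 3.47 and 3.55 (log2 difference -1.46, adjusted p = 1.86e-04). Isl1 was higher by 0.44 (adjusted p = 0.0190), at 1.49 and 1.91 FPKM against 0.958 and 1.03. Lhx6, Lhx8 and Isl2 had placode means below 1 FPKM and Isl1 an SMG mean below 1, so the minimum level fixed their direction. Lhx3 and Lhx4, genes of motor neurons and V2 interneurons, were listed at 0 in both glands and were at 1.61 and 1.80 FPKM and at 0.922 and 1.55 FPKM in the placodes. The LIM genes of this list thus lay below 5 FPKM in every sample, far under Lhx1 and Lhx5 in the placodes.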
